A study of Homo sapiens with 12 samples.

Results

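The genes described here encode the ligands and receptors of the classical axon guidance families: semaphorins, plexins, neuropilins, Eph receptors, ephrins, slits, Robo receptors, netrins and the netrin receptors DCC and UNC5. Members were taken by name alone, as every protein-coding gene whose symbol begins with SEMA, PLXN, EPHA, EPHB, EFNA, EFNB, ROBO or UNC5, the genes SLIT1, SLIT2 and SLIT3, and NRP1, NRP2, NTN1, NTN4 and DCC. The rule itself uses no measured value, but it was chosen with earlier results of these data known. The rule found 70 genes among the 63925 gene IDs of the count files. For 3 of the 70 only the letters of the symbol match: UNC50 and UNC5CL are not netrin receptors, and EFNA4-EFNA3 is a readthrough transcript across both ephrin genes. These 3 are counted as members and described apart from the families.

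Growing axons are steered by cues that attract or repel their tips. Semaphorins are secreted or membrane-bound and act through plexins, with neuropilins as the ligand-binding partners of most class 3 semaphorins. Slits are secreted repellents read by Robo receptors at the ventral midline and elsewhere. Netrins attract axons through DCC and can repel them through UNC5 receptors. Ephrins and Eph receptor tyrosine kinases are both held at cell surfaces and signal on contact, in both directions, to set boundaries and topographic maps. In the developing brain many of these genes are expressed by progenitors, neurons, glia and mesenchymal cells at once, so RNA of a whole culture mixes several sources.

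RNA came from neural cultures grown from the human embryonic stem cell lines H9 and H1, both established lines, by dual SMAD inhibition over 10 weeks. The stem cells had been grown on mouse feeder cells. All cultures were kept in neural medium with ascorbic acid, cyclic AMP, BDNF and GDNF. Each line was given 1 µM dexamethasone, a synthetic glucocorticoid, or its DMSO solvent (vehicle) for 6 h, which makes 4 groups of 3 sister cultures. Each line is 1 set of cultures, and no separate differentiation is named, so the line and its differentiation cannot be told apart, and the spread behind each p is that of sister cultures only.

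Total counts lay between 14751168 and 27505804 per library, and H9 vehicle culture 3 had both the lowest total and the values farthest from its sisters. On the log2 scale, the members in this library lay a root mean square distance of 0.399 from their group, where the remaining 11 libraries had 0.0904 to 0.27. Of its counts 0.607% were mitochondrially encoded, against 2.91% to 5.64% in the others. Counts of members called are given with and without this library, and so is each call that its removal changed. Among defining markers, the neuronal gene STMN2 stood at a mean of 950 CPM (counts scaled to library size) in H9 vehicle and 756 CPM in H1 vehicle. The pluripotency gene POU5F1 had no count in any library. The 6 pluripotency markers, with POU5F1 among them, summed to 11.9 to 16.3 CPM in H9 vehicle and 20.1 to 23.2 CPM in H1 vehicle. The neuronal marker TUBB3 had a mean below 1 CPM in all 4 groups, and the progenitor markers SOX2 and HES5 were listed at 0 throughout. A value at or near 0 in these files is therefore given only as listed.

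Of the 70 members, 65 had enough counts to be tested. The other 5 were SEMA3G, EPHA1, ROBO4 and EFNA4-EFNA3, none with more than 6 counts in any library, and EFNA4, with 0 counts in all 12 libraries. A count of 0 allows up to 3 counts per library. Levels of different genes are compared here as CPM per kilobase of annotated exon, averaged over all 12 libraries. On that scale the highest members were EFNB3, a transmembrane ephrin, at 67.3, and PLXNB2, a plexin for class 4 semaphorins, at 58.6. They were followed by SLIT1 at 53.5, PLXNA1 at 42.4, NTN1 at 40.0, SEMA6A at 39.2, SLIT2 at 33.8 and EFNB2 at 31.4. The lowest tested members were EPHB6, an Eph receptor without kinase activity, at 0.182, and UNC5CL at 0.289. The highest ephrin-A ligand was EFNA2 at 11.8 and the highest netrin receptor UNC5B at 9.12, and each other family held a member above both.

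**Figure D1:**
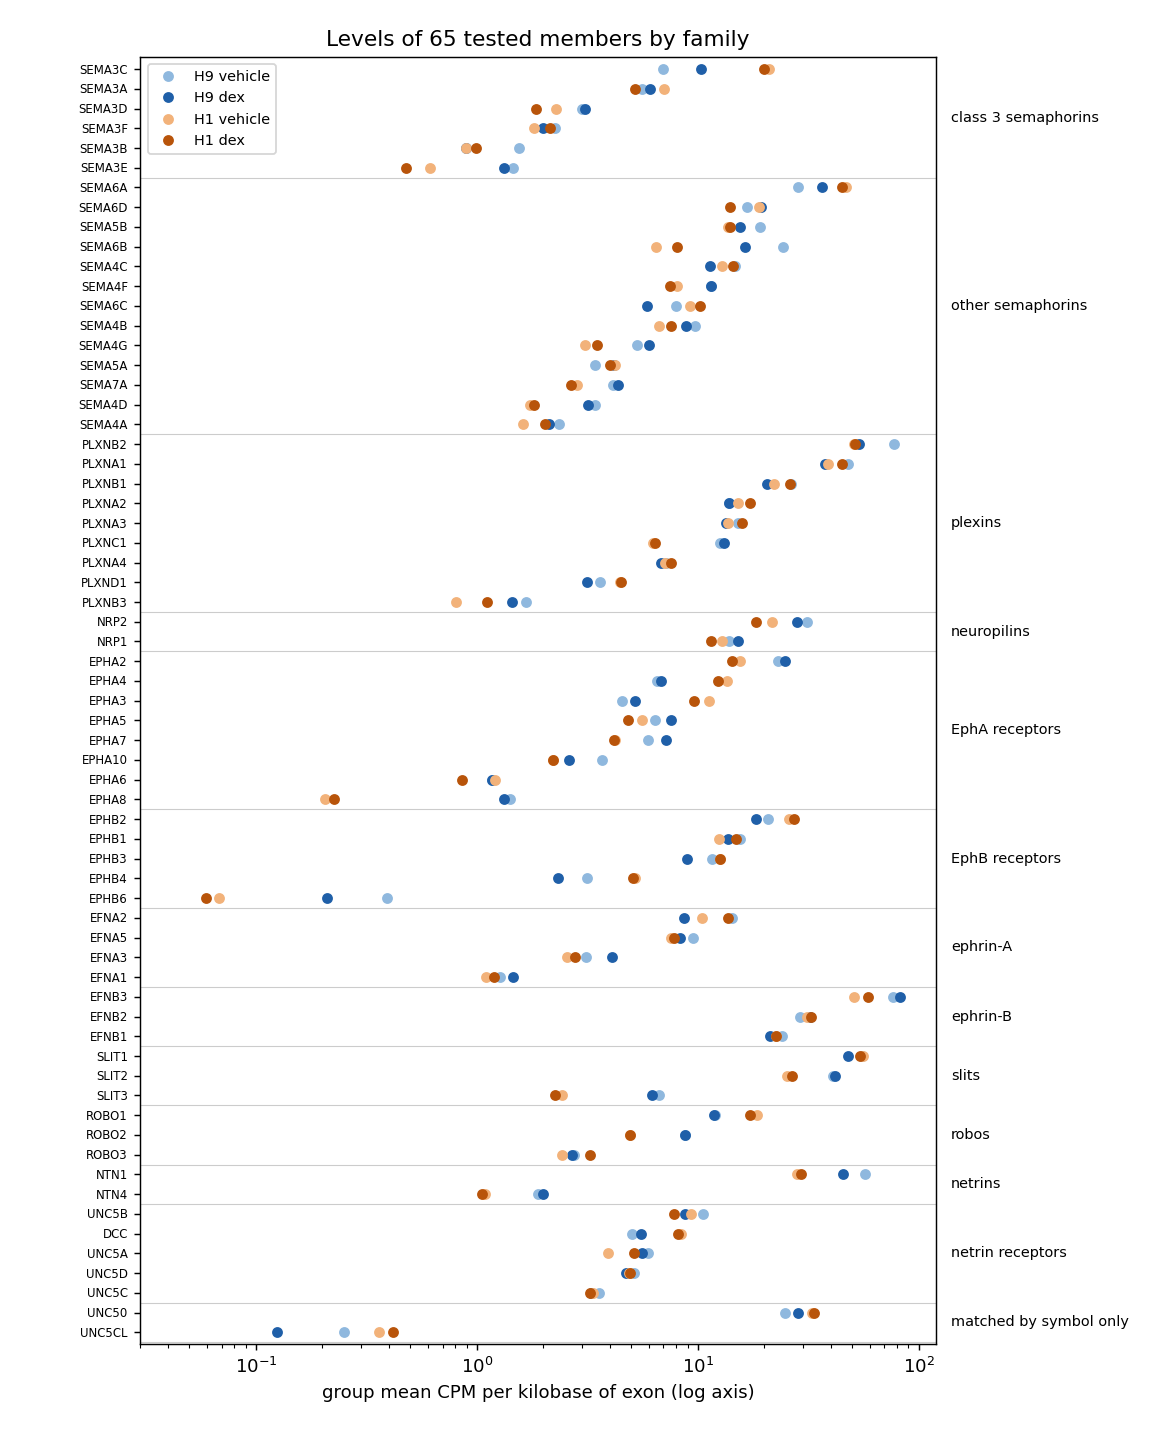
Mean level of each of the 65 tested members in the 4 groups, as CPM per kilobase of exon on a log axis, with families separated by lines. Each point is the mean of 3 cultures. EFNB3, PLXNB2 and SLIT1 lie at the right edge, EPHB6 and UNC5CL at the left, and the blue H9 points of EPHA8, EPHB6 and SLIT3 lie to the right of the orange H1 points.

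The first comparison asked how the members differ between the lines. In vehicle cultures 34 of the 65 tested members passed edgeR's test at an adjusted p under 0.05, 25 higher in H9 and 9 lower. That is 52.3% of the members, beside 46.9% of all genes tested. Of all genes 25.7% were higher and 21.2% lower. The median log2 fold change (H9 minus H1) was 0.30, beside 0.03 for all genes. Without H9 vehicle culture 3 the median of the members was smaller, that of all genes was −0.01, and 8 members turned sign. In the dexamethasone cultures, which share no library with the vehicle cultures, 32 members passed, 22 higher and 10 lower, or 49.2% beside 43.6% of all genes (22.5% higher and 21.2% lower). Their median was 0.10, beside −0.01. The share of members that passed was thus near that of all genes in both treatments, and the families below show which members they were. In bulk RNA, fewer cells of a type and less RNA per cell cannot be told apart.

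Both treatments together called 24 members with the same sign, 18 higher and 6 lower in H9, which is the case for 33% of all genes. The 18 higher were SEMA3E, SEMA4D, SEMA4F, SEMA4G, SEMA6B, SEMA7A, PLXNC1, NRP2, EPHA2, EPHA7, EPHA8, EPHB6, EFNB3, SLIT2, SLIT3, ROBO2, NTN1 and NTN4. The 6 lower were SEMA3C, EPHA3, EPHA4, EPHB4, ROBO1 and DCC. A further 10 members passed in vehicle alone and 8 in dexamethasone alone, 23 passed in neither, and none passed in opposite directions. Of the 24, 23 passed in both comparisons whichever of the 12 libraries was left out. The exception was EPHA7, which passed in vehicle in 2 of these 12 fits.

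Without H9 vehicle culture 3 the members called with the same sign in both treatments were 36, 23 higher and 13 lower, or 55.4% beside 51.4% of all genes. In single comparisons without that library, 43 members passed in vehicle (28 higher, 15 lower, beside 30.1% and 28.6% of all genes, 58.6% together) and 46 in dexamethasone (27 higher, 19 lower, beside 31.9% and 32.8%, 64.6% together). All members that passed with the library also passed without it, and more joined them. In vehicle 9 joined: SEMA3D (0.59), EPHA5 (0.34) and EFNA3 (0.56) were then higher in H9, and SEMA5A (−0.38), SEMA6C (−0.53), PLXNA2 (−0.26), PLXND1 (−0.59), EPHB2 (−0.49) and EPHB3 (−0.35) lower. In dexamethasone, whose own libraries stayed the same, 14 joined, each with a smaller SE than before. The 5 higher were SEMA3A, SEMA4B, PLXNB3, EPHA6 and EFNA3, and the 9 lower were SEMA4C, SEMA6A, PLXNA1, PLXNA2, PLXNA3, PLXNB1, PLXND1, EFNA2 and UNC50. Which members are called in 1 treatment alone or in neither thus depends on this library, and for some members on the settings of the fit. Of 9 other settings with no single library left out, 7 called EPHB2 in vehicle. In dexamethasone 8 of them called PLXND1 and 6 called EPHA6. The other calls gained passed in at most 4 (SEMA6A in dexamethasone). Leaving out a single other library added calls in vehicle for 5 members (edgeR adjusted p = 0.0191 to 0.0493): SEMA3B, PLXNA1, EPHB1 and EFNA5 as higher without H9 vehicle culture 1, SEMA3B and EPHB1 also without H9 vehicle culture 2, and SEMA5A as lower without H9 dexamethasone culture 2. In dexamethasone it added 3 (edgeR adjusted p = 0.0363 to 0.0498), PLXNA2, PLXND1 and EPHA6, without H9 vehicle culture 1 or 2 or H1 dexamethasone culture 2 or 3.

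**Figure D2:**
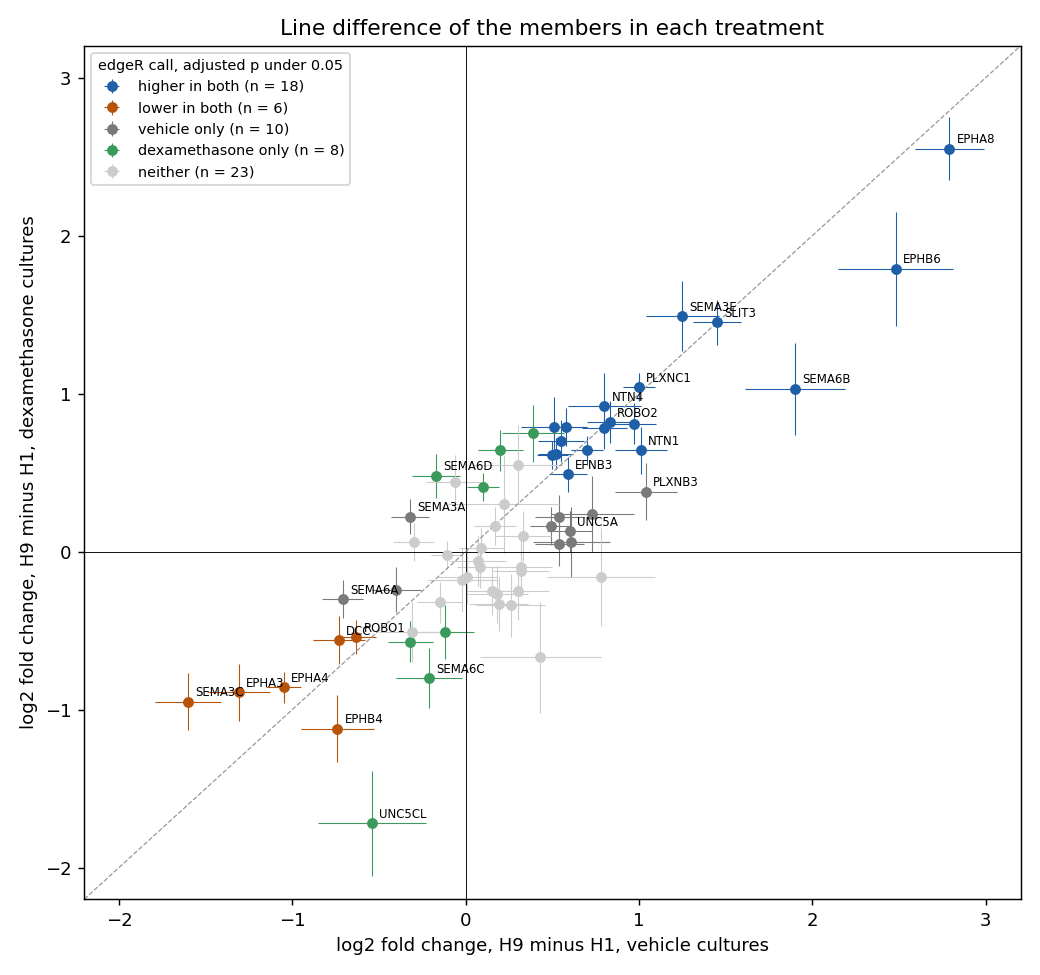
Line difference of each tested member in vehicle cultures (horizontal axis) and in dexamethasone cultures (vertical axis), both as log2 fold change H9 minus H1 with SE bars. Colours give the edgeR call and the dashed line marks equal differences. EPHA8 lies farthest to the upper right at 2.79 and 2.55, SEMA3C farthest to the left at −1.60, and the 23 grey points called in neither treatment lie around 0.

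**Figure D3:**
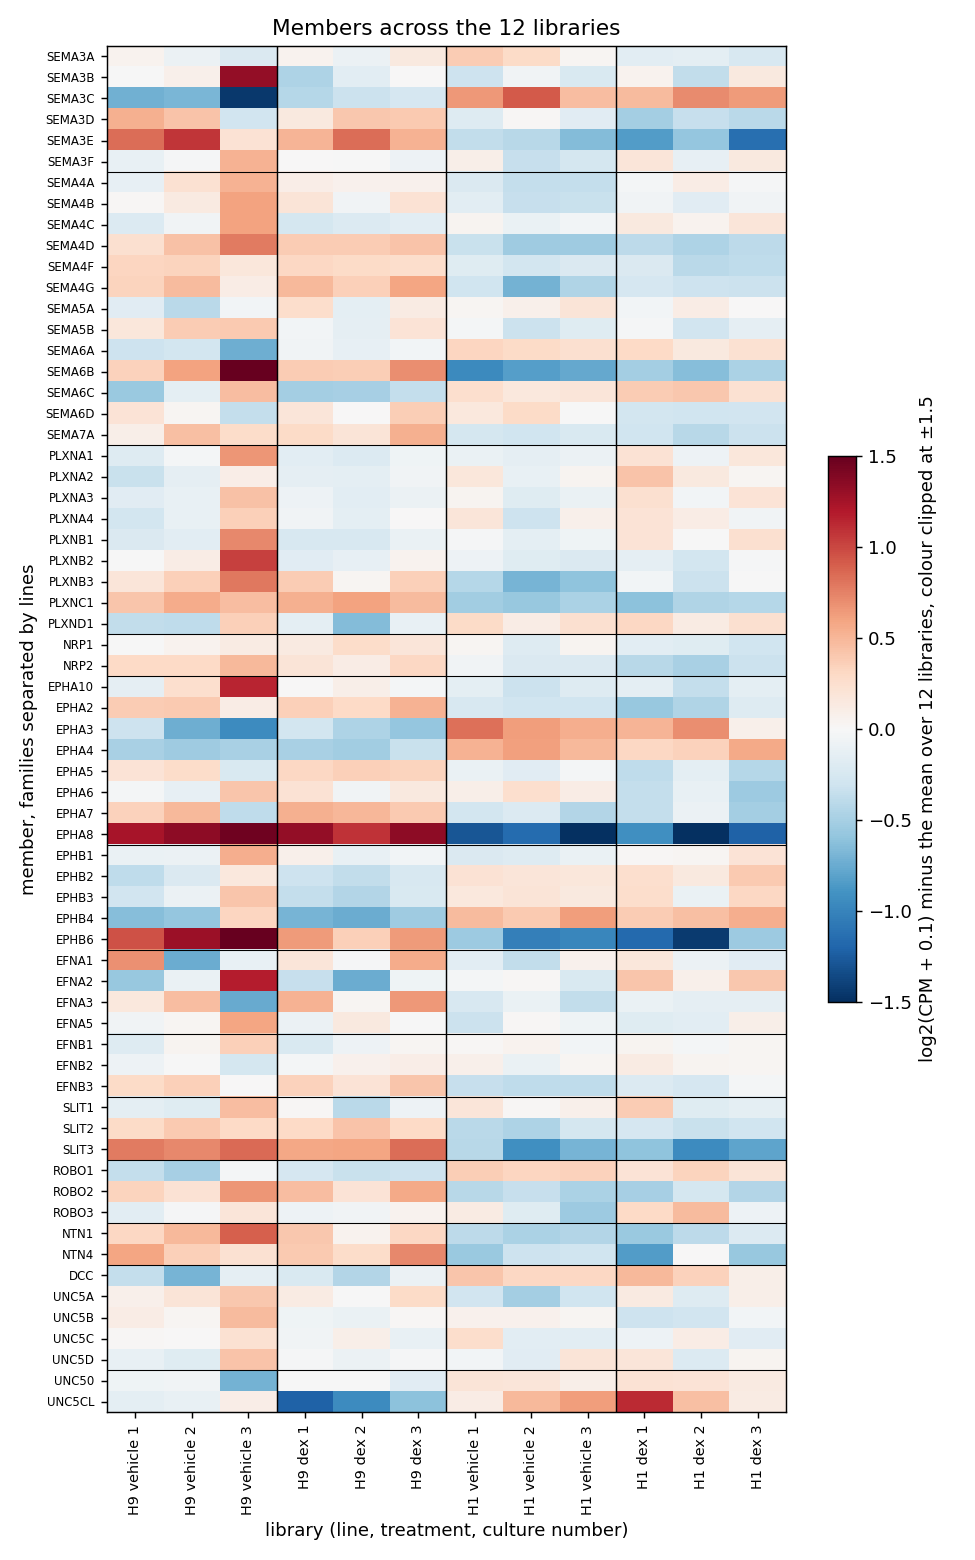
Each tested member (rows, by family) in each of the 12 libraries (columns), as log2(CPM + 0.1) minus the member's mean over the libraries, with the colour clipped at ±1.5. EPHA8, EPHB6 and SLIT3 are red in the 6 H9 columns and blue in the 6 H1 columns, SEMA3C and EPHA4 show the reverse, and the column of H9 vehicle culture 3 departs from its neighbours in many rows.

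Slits and their receptors differed within each family. SLIT3 (chromosome 5, 168661733 to 169301129, minus strand of GRCh38) stood at 94.8, 90.9 and 99.2 CPM in H9 vehicle and at 41.3, 29.0 and 34.0 CPM in H1 vehicle. With dexamethasone it stood at 82.7, 83.2 and 98.8 CPM in H9 and 36.2, 28.7 and 31.8 CPM in H1. No H1 culture reached the level of any H9 culture. The log2 fold change was 1.45 ± 0.14 (SE) in vehicle (edgeR adjusted p = 7.49e-06) and 1.45 ± 0.14 in dexamethasone (edgeR adjusted p = 6.66e-06), or 2.73-fold and 2.74-fold. SLIT2, a midline repellent, was at 390, 418 and 392 CPM in H9 vehicle against 241, 232 and 267 CPM in H1 vehicle, a log2 difference of 0.70 ± 0.09. SLIT1, the slit with the highest level per kilobase, showed no such gap: it was at 433, 423 and 663 CPM in H9 vehicle and 544, 486 and 507 CPM in H1 vehicle, with overlap and a log2 fold change of −0.02 ± 0.20. Within each library, the ratio of SLIT1 to SLIT3 counts was 4.37 to 6.68 in H9 cultures and 13.2 to 17.3 in H1 cultures.

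ROBO1 and ROBO2, the main neuronal slit receptors, went in opposite directions between the lines. ROBO2 (chromosome 3, 75906695 to 77649964, plus strand) was at 137, 127 and 173 CPM in H9 vehicle and at 81.5, 85.8 and 78.6 CPM in H1 vehicle. ROBO1 (chromosome 3, 78597240 to 79767815, minus strand) was at 124, 112 and 156 CPM in H9 vehicle and at 206, 198 and 202 CPM in H1 vehicle. Neither gene overlapped between the lines. With dexamethasone, ROBO2 was at 150, 126 and 162 CPM in H9 against 77.0, 90.8 and 80.2 CPM in H1, and ROBO1 at 133, 126 and 128 CPM against 183, 199 and 181 CPM. The log2 fold change of ROBO2 was 0.83 ± 0.13 in vehicle (edgeR adjusted p = 0.000356) and 0.82 ± 0.13 in dexamethasone (edgeR adjusted p = 0.000375). That of ROBO1 was −0.63 ± 0.11 (edgeR adjusted p = 0.000873) and −0.54 ± 0.11 (edgeR adjusted p = 0.00245). Counted within each library, the ratio of ROBO2 to ROBO1 was 1.11 to 1.14 in H9 vehicle and 1.00 to 1.26 in H9 dexamethasone, against 0.389 to 0.433 in H1 vehicle and 0.42 to 0.456 in H1 dexamethasone. The third tested receptor, ROBO3, which acts in midline crossing, was at 13.2 to 26.8 CPM over all 12 libraries and passed in neither treatment.

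ROBO2 and ROBO1 lie next to each other, 947 kb apart and on opposite strands. The 250 bases before the RefSeq start of each are shown because these neighbours differed in opposite directions. They are on GRCh38.p14, 5′ to 3′ on the gene's strand, at chr3:77039849-77040098 (plus) for ROBO2 and chr3:79019460-79019709 (minus) for ROBO1. Capitals mark matches to the motifs searched in all member promoters, which are spelled out further on.
ROBO2: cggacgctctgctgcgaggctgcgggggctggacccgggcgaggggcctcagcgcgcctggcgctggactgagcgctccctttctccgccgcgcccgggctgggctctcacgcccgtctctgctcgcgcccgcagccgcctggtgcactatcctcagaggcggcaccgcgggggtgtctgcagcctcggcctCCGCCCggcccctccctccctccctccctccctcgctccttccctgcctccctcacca
ROBO1: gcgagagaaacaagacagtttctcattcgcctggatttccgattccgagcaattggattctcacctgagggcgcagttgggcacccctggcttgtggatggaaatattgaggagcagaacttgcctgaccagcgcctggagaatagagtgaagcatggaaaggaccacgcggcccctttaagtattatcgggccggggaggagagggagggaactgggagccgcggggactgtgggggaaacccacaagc
The ROBO2 stretch holds 76% G or C, 27 CpG and 1 GC box, and the ROBO1 stretch 56.8% G or C, 12 CpG and no match. Both RefSeq starts lie inside the GENCODE gene spans given above, and which start these cultures use was not measured.

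Netrin and its receptor DCC also differed in opposite directions. NTN1 (chromosome 17, 9021542 to 9244000, plus strand), the secreted attractant, was at 300, 340 and 451 CPM in H9 vehicle and at 185, 175 and 180 CPM in H1 vehicle. DCC (chromosome 18, 52340172 to 53535903, plus strand) was at 67.4, 53.1 and 78.7 CPM in H9 vehicle and at 115, 108 and 108 CPM in H1 vehicle. All H9 cultures exceeded all H1 cultures in NTN1 and lay below them in DCC. In the dexamethasone cultures NTN1 was at 321, 251 and 300 CPM in H9 against 164, 185 and 211 CPM in H1, and DCC at 73.8, 63.9 and 81.5 CPM against 122, 110 and 91.8 CPM. For NTN1 the log2 fold change was 1.01 ± 0.15 in vehicle (edgeR adjusted p = 0.000241) and 0.64 ± 0.15 in dexamethasone (edgeR adjusted p = 0.00521), and without H9 vehicle culture 3 it was 0.83 in vehicle. For DCC it was −0.73 ± 0.15 (edgeR adjusted p = 0.002) and −0.56 ± 0.15 (edgeR adjusted p = 0.00993). The ratio of NTN1 to DCC counts was 3.68 to 6.39 in H9 cultures and 1.35 to 2.3 in H1 cultures.

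NTN4, a laminin-related netrin, was higher in H9 in both treatments, at 7.01 to 9.04 CPM in H9 vehicle against 4.03 to 4.81 CPM in H1 vehicle (log2 fold change 0.80 ± 0.21). UNC5A passed in vehicle alone, at 23.4, 25.4 and 29.3 CPM in H9 against 18.1, 15.6 and 17.9 CPM in H1, a log2 fold change of 0.60 ± 0.13 (edgeR adjusted p = 0.00307). In dexamethasone its difference was 0.13 ± 0.13. UNC5B, UNC5C and UNC5D, the other repulsive netrin receptors, passed in neither treatment, with log2 fold changes from −0.06 to 0.17 over both.

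Class 3 semaphorins are secreted, and the 2 that passed in both treatments had opposite signs. SEMA3C (chromosome 7, 80742538 to 80922359, minus strand) was at 49.8, 50.8 and 29.9 CPM in H9 vehicle and at 128, 155 and 113 CPM in H1 vehicle. SEMA3E (chromosome 7, 83363238 to 83649113, minus strand), whose usual receptor is PLXND1, was at 13.0, 15.3 and 8.43 CPM in H9 vehicle and at 5.55, 5.39 and 4.57 CPM in H1 vehicle. Neither gene overlapped between the lines, and H9 vehicle culture 3 was the lowest H9 culture for both. With dexamethasone SEMA3C was at 60.8, 65.7 and 68.7 CPM in H9 against 114, 134 and 128 CPM in H1, and SEMA3E at 10.4, 13.0 and 10.4 CPM against 4.02, 4.79 and 3.24 CPM. The log2 fold change of SEMA3C was −1.60 ± 0.19 in vehicle (edgeR adjusted p = 3.25e-05) and −0.95 ± 0.18 in dexamethasone (edgeR adjusted p = 0.0013). That of SEMA3E was 1.25 ± 0.21 (edgeR adjusted p = 0.000585) and 1.49 ± 0.22 (edgeR adjusted p = 0.00019). The ratio of SEMA3C to SEMA3E counts was 3.32 to 6.58 in H9 cultures and 23.1 to 39.4 in H1 cultures.

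SEMA3C and SEMA3E belong to a row of class 3 semaphorin genes on chromosome 7 that also holds SEMA3A and SEMA3D. The 250 bases before their RefSeq starts, at chr7:80919052-80919301 for SEMA3C and chr7:83641432-83641681 for SEMA3E (both minus strand, GRCh38.p14), are shown because the genes differed in opposite directions. Capitals again mark motif matches.
SEMA3C: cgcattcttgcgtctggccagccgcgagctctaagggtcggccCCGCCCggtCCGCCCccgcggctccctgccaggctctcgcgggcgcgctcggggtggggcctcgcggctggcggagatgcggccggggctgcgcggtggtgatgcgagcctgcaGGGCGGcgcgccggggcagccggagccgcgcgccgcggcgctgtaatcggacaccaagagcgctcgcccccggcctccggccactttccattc
SEMA3E: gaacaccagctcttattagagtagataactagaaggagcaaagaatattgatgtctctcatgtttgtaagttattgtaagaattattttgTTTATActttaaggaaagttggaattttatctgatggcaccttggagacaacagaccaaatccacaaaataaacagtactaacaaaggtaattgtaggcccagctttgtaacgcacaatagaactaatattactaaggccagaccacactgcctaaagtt
These stretches are unlike each other in composition: SEMA3C has 77.6% G or C, 39 CpG and 3 GC boxes, and SEMA3E 34.8% G or C, 1 CpG and a TATA box match in reverse. Both starts lie inside the GENCODE gene spans, and which start these cultures use was not measured.

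The other class 3 semaphorins passed in 1 treatment or in none. SEMA3A, a repellent of many cortical and sensory axons, was at 57.7, 52.2 and 47.8 CPM in H9 vehicle and at 72.2, 68.1 and 56.7 CPM in H1 vehicle, with overlap. It passed as lower in H9 in vehicle (log2 fold change −0.32 ± 0.11, edgeR adjusted p = 0.035) and had 0.22 ± 0.11 in dexamethasone, where it did not pass. The vehicle call was lost (edgeR adjusted p = 0.0512 to 0.136) on removal of any of 4 single libraries, H9 vehicle culture 2, H9 dexamethasone culture 1, H1 vehicle culture 1 and H1 vehicle culture 2, and without H9 vehicle culture 3 SEMA3A passed as lower in vehicle and as higher in dexamethasone (−0.26 ± 0.10 and 0.23 ± 0.09). SEMA3D passed in dexamethasone alone (0.75 ± 0.18, edgeR adjusted p = 0.00534), and without that library in vehicle too (0.59 ± 0.10). SEMA3B and SEMA3F passed in neither treatment, with or without it, although SEMA3B had 0.78 in vehicle.

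Of the neuropilins, NRP2 was higher in H9 in both treatments and NRP1 in dexamethasone alone. NRP2 (chromosome 2, 205681990 to 205798133, plus strand), a co-receptor of SEMA3C and SEMA3F, was at 415, 414 and 473 CPM in H9 vehicle against 326, 291 and 290 CPM in H1 vehicle. In dexamethasone it was at 387, 365 and 419 CPM against 253, 240 and 270 CPM. The groups did not overlap, and the log2 fold changes were 0.52 ± 0.10 (edgeR adjusted p = 0.00119) and 0.62 ± 0.10 (edgeR adjusted p = 0.000377). NRP1, the co-receptor of SEMA3A, had 0.10 ± 0.09 in vehicle and passed in dexamethasone alone, at 0.41 ± 0.09 (edgeR adjusted p = 0.00426).

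Plexins held 1 steady difference among 9 genes. PLXNC1 (chromosome 12, 94148723 to 94307675, plus strand), the receptor of SEMA7A, was at 119, 131 and 123 CPM in H9 vehicle and at 61.9, 60.3 and 64.2 CPM in H1 vehicle. With dexamethasone it was at 129, 136 and 124 CPM in H9 and at 58.3, 65.2 and 66.1 CPM in H1. The lines did not overlap, and the log2 fold changes were 1.00 ± 0.09 (edgeR adjusted p = 3.96e-06) and 1.04 ± 0.09 (edgeR adjusted p = 2.71e-06). Its ligand SEMA7A, a semaphorin anchored by a lipid tail, was also higher in H9, at 13.8, 17.8 and 15.8 CPM against 10.8, 10.6 and 11.1 CPM in vehicle (0.55 ± 0.13) and by 0.70 ± 0.13 in dexamethasone. PLXNB3, a receptor of SEMA5A, passed in vehicle alone, at 9.57, 10.9 and 14.8 CPM in H9 against 6.27, 5.20 and 5.53 CPM in H1 (log2 fold change 1.04 ± 0.18, against 0.38 ± 0.18 in dexamethasone). It passed in both treatments without H9 vehicle culture 3 (0.85 ± 0.14 and 0.38 ± 0.13). Of its exon bases 20.4% are shared with SRPK3 in GENCODE 29.

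PLXNB2 passed as higher in H9 in vehicle, by an amount that depended on 1 library. It was at 412, 446 and 836 CPM in H9 vehicle and at 392, 364 and 356 CPM in H1 vehicle, so that H9 vehicle culture 3 stood far above its sisters. The log2 fold change was 0.61 ± 0.22 (edgeR adjusted p = 0.0371) with that library and 0.21 ± 0.08 without it, where it still passed (edgeR adjusted p = 0.0388), and the dexamethasone difference was 0.06 ± 0.22. The vehicle call was lost (edgeR adjusted p = 0.0502 to 0.102) on removal of H9 dexamethasone culture 1 or 2, of any 1 of the H1 vehicle cultures or of H1 dexamethasone culture 1. It was also lost with limma-voom (adjusted p = 0.0538) and with the vehicle groups fitted alone (edgeR adjusted p = 0.135). All 4 class A plexins, the signalling partners of neuropilins, together with PLXNB1 and PLXND1, passed in neither treatment, with log2 fold changes from −0.51 to 0.30. When that library was left out, 5 of these 6 passed as lower in H9 in dexamethasone: PLXNA1 (−0.25 ± 0.07), PLXNA2 (−0.32 ± 0.09), PLXNA3 (−0.25 ± 0.07), PLXNB1 (−0.34 ± 0.07) and PLXND1 (−0.51 ± 0.11). PLXNA2 (−0.26 ± 0.11) and PLXND1 (−0.59 ± 0.12) were then lower in vehicle as well, and PLXNA4 passed in neither treatment.

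Membrane-bound semaphorins of classes 4 to 7 had 13 members, of which 9 passed in vehicle, 8 higher in H9 and 1 lower. In dexamethasone 7 passed, 6 higher and 1 lower. These are 69.2% and 53.8%, beside 46.9% and 43.6% of all genes. SEMA6B (chromosome 19, 4542593 to 4559808, minus strand), a ligand of class A plexins, was at 65.6, 78.7 and 178 CPM in H9 vehicle and at 26.6, 29.0 and 30.4 CPM in H1 vehicle. With dexamethasone it was at 67.2, 67.0 and 83.9 CPM against 36.3, 33.2 and 37.0 CPM. The lines did not overlap. Its log2 fold change in vehicle was 1.90 ± 0.29 with H9 vehicle culture 3 and 1.33 ± 0.10 without it, and in dexamethasone 1.03 ± 0.29 (edgeR adjusted p = 0.0121). SEMA6A, the transmembrane semaphorin with the highest level per kilobase, was the 1 member lower in H9 in vehicle. It was at 338, 347 and 253 CPM in H9 vehicle against 527, 512 and 497 CPM in H1 vehicle (−0.71 ± 0.12, edgeR adjusted p = 0.000447). In dexamethasone it had −0.30 ± 0.12 and did not pass (edgeR adjusted p = 0.0564), although no H9 culture reached an H1 culture, and without H9 vehicle culture 3 it passed (edgeR adjusted p = 0.000207).

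SEMA4D, a ligand of class B plexins, SEMA4F and SEMA4G were higher in H9 in both treatments. In vehicle SEMA4D was at 40.6, 46.3 and 58.8 CPM in H9 and at 27.0, 23.5 and 23.6 CPM in H1, with log2 fold changes of 0.97 ± 0.13 in vehicle and 0.81 ± 0.13 in dexamethasone. The differences of SEMA4F were 0.50 ± 0.09 and 0.61 ± 0.09. Those of SEMA4G were 0.80 ± 0.13 and 0.78 ± 0.13. SEMA4G shares 27.4% of its exon bases with genes on the opposite strand, mostly MRPL43, and the strand setting of the counting is not given in the sources used here. SEMA4A, SEMA4B and SEMA5B passed in vehicle alone (0.49 to 0.54), SEMA6C (−0.80 ± 0.19) and SEMA6D (0.48 ± 0.14) in dexamethasone alone, and SEMA4C and SEMA5A in neither. Without H9 vehicle culture 3, SEMA4B (0.35 ± 0.09 and 0.22 ± 0.08) and SEMA6C (−0.53 ± 0.10 and −0.80 ± 0.09) passed in both treatments, SEMA5A in vehicle (−0.38 ± 0.11) and SEMA4C in dexamethasone (−0.33 ± 0.06). The SEMA6D call was lost (edgeR adjusted p = 0.0503 to 0.0852) on removal of H9 dexamethasone culture 3 or of H1 dexamethasone culture 2 or 3.

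EphA receptors, which mostly bind ephrin-A ligands, had the largest difference of all members. EPHA8 (chromosome 1, 22563564 to 22603594, plus strand) was at 7.06, 7.56 and 8.23 CPM in H9 vehicle and at 1.15, 1.26 and 0.881 CPM in H1 vehicle. With dexamethasone it was at 7.45, 6.35 and 7.56 CPM in H9 and at 1.51, 0.908 and 1.21 CPM in H1. Even the lowest H9 culture was several times the highest H1 culture, although EPHA8 is among the lowest members per kilobase. The log2 fold change was 2.79 ± 0.20 in vehicle (6.9-fold, edgeR adjusted p = 8.9e-07) and 2.55 ± 0.20 in dexamethasone (5.85-fold, edgeR adjusted p = 1.41e-06).

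EPHA4 and EPHA3 were lower in H9. EPHA4 (chromosome 2, 221418027 to 221574202, minus strand), which can bind ephrins of both classes, was at 50.2, 48.6 and 50.2 CPM in H9 vehicle and at 101, 108 and 98.5 CPM in H1 vehicle. EPHA3 (chromosome 3, 89107524 to 89482134, plus strand) was at 37.9, 28.3 and 24.4 CPM in H9 vehicle and at 83.5, 72.7 and 68.3 CPM in H1 vehicle. Neither overlapped between the lines. With dexamethasone EPHA4 was at 50.0, 48.8 and 55.7 CPM against 87.1, 89.8 and 104 CPM, and EPHA3 at 38.8, 34.0 and 31.4 CPM against 66.8, 76.4 and 49.7 CPM. The log2 fold changes of EPHA4 were −1.05 ± 0.10 (edgeR adjusted p = 5.81e-06) and −0.86 ± 0.10 (edgeR adjusted p = 2.18e-05). Those of EPHA3 were −1.31 ± 0.18 (edgeR adjusted p = 0.000147) and −0.89 ± 0.18 (edgeR adjusted p = 0.00198). Because EPHA8 and EPHA4 differed in opposite directions, the ratio of EPHA4 to EPHA8 counts was 6.1 to 7.69 in H9 cultures and 57.9 to 112 in H1 cultures.

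The 250 bases before the RefSeq starts of this pair are at chr1:22563239-22563488 (plus strand) for EPHA8 and chr2:221572305-221572554 (minus strand) for EPHA4, on GRCh38.p14, with motif matches in capitals. They are shown for the EphA receptor with the largest difference and for the one lower in H9 with the smallest error.
EPHA8: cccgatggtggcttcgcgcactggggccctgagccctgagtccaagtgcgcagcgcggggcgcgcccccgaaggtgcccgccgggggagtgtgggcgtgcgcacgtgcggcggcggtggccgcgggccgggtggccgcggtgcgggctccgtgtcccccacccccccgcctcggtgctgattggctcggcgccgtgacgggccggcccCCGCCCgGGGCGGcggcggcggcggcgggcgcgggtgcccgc
EPHA4: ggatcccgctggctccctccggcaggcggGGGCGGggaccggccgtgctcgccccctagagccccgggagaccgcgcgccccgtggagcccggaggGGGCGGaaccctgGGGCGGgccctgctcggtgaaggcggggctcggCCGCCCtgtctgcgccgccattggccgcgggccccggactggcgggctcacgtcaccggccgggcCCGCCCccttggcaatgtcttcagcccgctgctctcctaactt
Both are rich in G and C, with 83.2% and 42 CpG before EPHA8 and 78% and 30 CpG before EPHA4. EPHA8 has 2 GC boxes and EPHA4 has 5, and no other motif matched in either. The EPHA4 start, too, lies inside the gene span.

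EPHA2, the EphA receptor with the highest level per kilobase, was at 102, 103 and 85.0 CPM in H9 vehicle and at 66.5, 63.9 and 63.6 CPM in H1 vehicle, without overlap (log2 fold change 0.58 ± 0.12, and 0.79 ± 0.12 in dexamethasone). EPHA7 was called higher in both treatments (0.51 ± 0.19 and 0.79 ± 0.19), with overlap in vehicle. Its vehicle call was lost (edgeR adjusted p = 0.0517 to 0.17) on removal of any library except H9 vehicle culture 3, without which it was 0.72 ± 0.10, and H1 dexamethasone culture 2. EPHA10 passed in vehicle alone, at 19.1, 25.1 and 46.3 CPM in H9 against 19.0, 16.8 and 18.3 CPM in H1. Its log2 fold change was 0.73 ± 0.24 (edgeR adjusted p = 0.0273), and without H9 vehicle culture 3 it was 0.29 ± 0.11 and still passed (edgeR adjusted p = 0.0349). The call was lost on removal of any 1 of the H1 vehicle cultures (edgeR adjusted p = 0.0572 to 0.085). EPHA5 passed in dexamethasone alone (0.64) and EPHA6 in neither, and without H9 vehicle culture 3 EPHA5 passed in vehicle (0.34 ± 0.08) and EPHA6 in dexamethasone (0.44 ± 0.13).

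EphB receptors, which bind ephrin-B ligands, had 1 of 5 members lower in H9 in vehicle and 3 of 5 in dexamethasone, with 1 higher in both. Of all genes 21.2% were lower in each treatment, and 25.7% (vehicle) and 22.5% (dexamethasone) higher. EPHB4 (chromosome 7, 100802565 to 100827521, minus strand) was at 15.3, 15.9 and 29.7 CPM in H9 vehicle and at 33.0, 31.1 and 36.7 CPM in H1 vehicle. In dexamethasone it was at 14.6, 14.1 and 16.4 CPM against 30.9, 32.6 and 34.7 CPM. H9 vehicle culture 3 came closest to the H1 cultures without reaching them. The log2 fold changes were −0.74 ± 0.21 (edgeR adjusted p = 0.0123) and −1.12 ± 0.21 (edgeR adjusted p = 0.00109). Without that library the vehicle value was −1.11 ± 0.10, and with the vehicle groups fitted alone it did not pass (edgeR adjusted p = 0.0782). EPHB2, the EphB receptor with the highest level per kilobase, was at 219, 244 and 317 CPM in H9 vehicle and at 330, 322 and 321 CPM in H1 vehicle. Its difference was −0.32 ± 0.13 in vehicle (edgeR adjusted p = 0.0579) and −0.57 ± 0.13 in dexamethasone (edgeR adjusted p = 0.00361), and without H9 vehicle culture 3 the vehicle value was −0.49 ± 0.07 and passed.

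EPHB6 was the 1 EphB receptor higher in H9, at 1.5, 1.92 and 2.86 CPM in H9 vehicle against 0.466, 0.306 and 0.320 CPM in H1 vehicle. With dexamethasone it was at 1.19, 0.961 and 1.19 CPM against 0.270, 0.206 and 0.469 CPM. The lines did not overlap, at levels near the lower end of what was counted. The log2 fold changes were 2.48 ± 0.33 (edgeR adjusted p = 0.000101) and 1.79 ± 0.36 (edgeR adjusted p = 0.00156). EPHB3 passed as lower in dexamethasone alone (−0.51 ± 0.17). That call was lost (edgeR adjusted p = 0.0715 to 0.0936) on removal of H9 dexamethasone culture 1 or 2 or of H1 dexamethasone culture 1 or 3, and without H9 vehicle culture 3 EPHB3 passed in vehicle too (−0.35 ± 0.11). EPHB1 passed in neither treatment.

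Of the 7 ephrin ligands tested, EFNB3 passed, and EFNA2 and EFNA3 passed without H9 vehicle culture 3. EFNB3 (chromosome 17, 7705202 to 7711378, plus strand), known as a midline barrier in the spinal cord, was at 258, 272 and 213 CPM in H9 vehicle against 167, 163 and 163 CPM in H1 vehicle. With dexamethasone it was at 270, 246 and 283 CPM against 184, 178 and 208 CPM. The lines did not overlap, and the log2 fold changes were 0.59 ± 0.11 (edgeR adjusted p = 0.000997) and 0.49 ± 0.11 (edgeR adjusted p = 0.00362). EFNB1 and EFNB2 had log2 fold changes from −0.11 to 0.08. Of the ephrin-A ligands, EFNA1, EFNA3 and EFNA5 had 0.10 to 0.55. EFNA2 was at 7.06, 9.82 and 23.9 CPM in H9 vehicle and at 10.3, 10.6 and 8.97 CPM in H1 vehicle, with a log2 fold change of 0.43 ± 0.35 that turned to −0.24 ± 0.18 without H9 vehicle culture 3, and neither value passed. In dexamethasone EFNA2 was at 8.29, 6.27 and 10.1 CPM in H9 and at 14.1, 11.1 and 13.9 CPM in H1, without overlap. Its log2 fold change there was −0.67 ± 0.35 and did not pass (edgeR adjusted p = 0.15), and without H9 vehicle culture 3 it was −0.66 ± 0.16 and passed (edgeR adjusted p = 0.002). Without that library EFNA3 passed as higher in both treatments (0.56 ± 0.17 and 0.56 ± 0.16). EFNA3 shares 44.7% of its exon bases with an overlapping readthrough gene and EFNB2 26.2% with a gene on the opposite strand, so their counts are less certain.

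**Figure D4:**
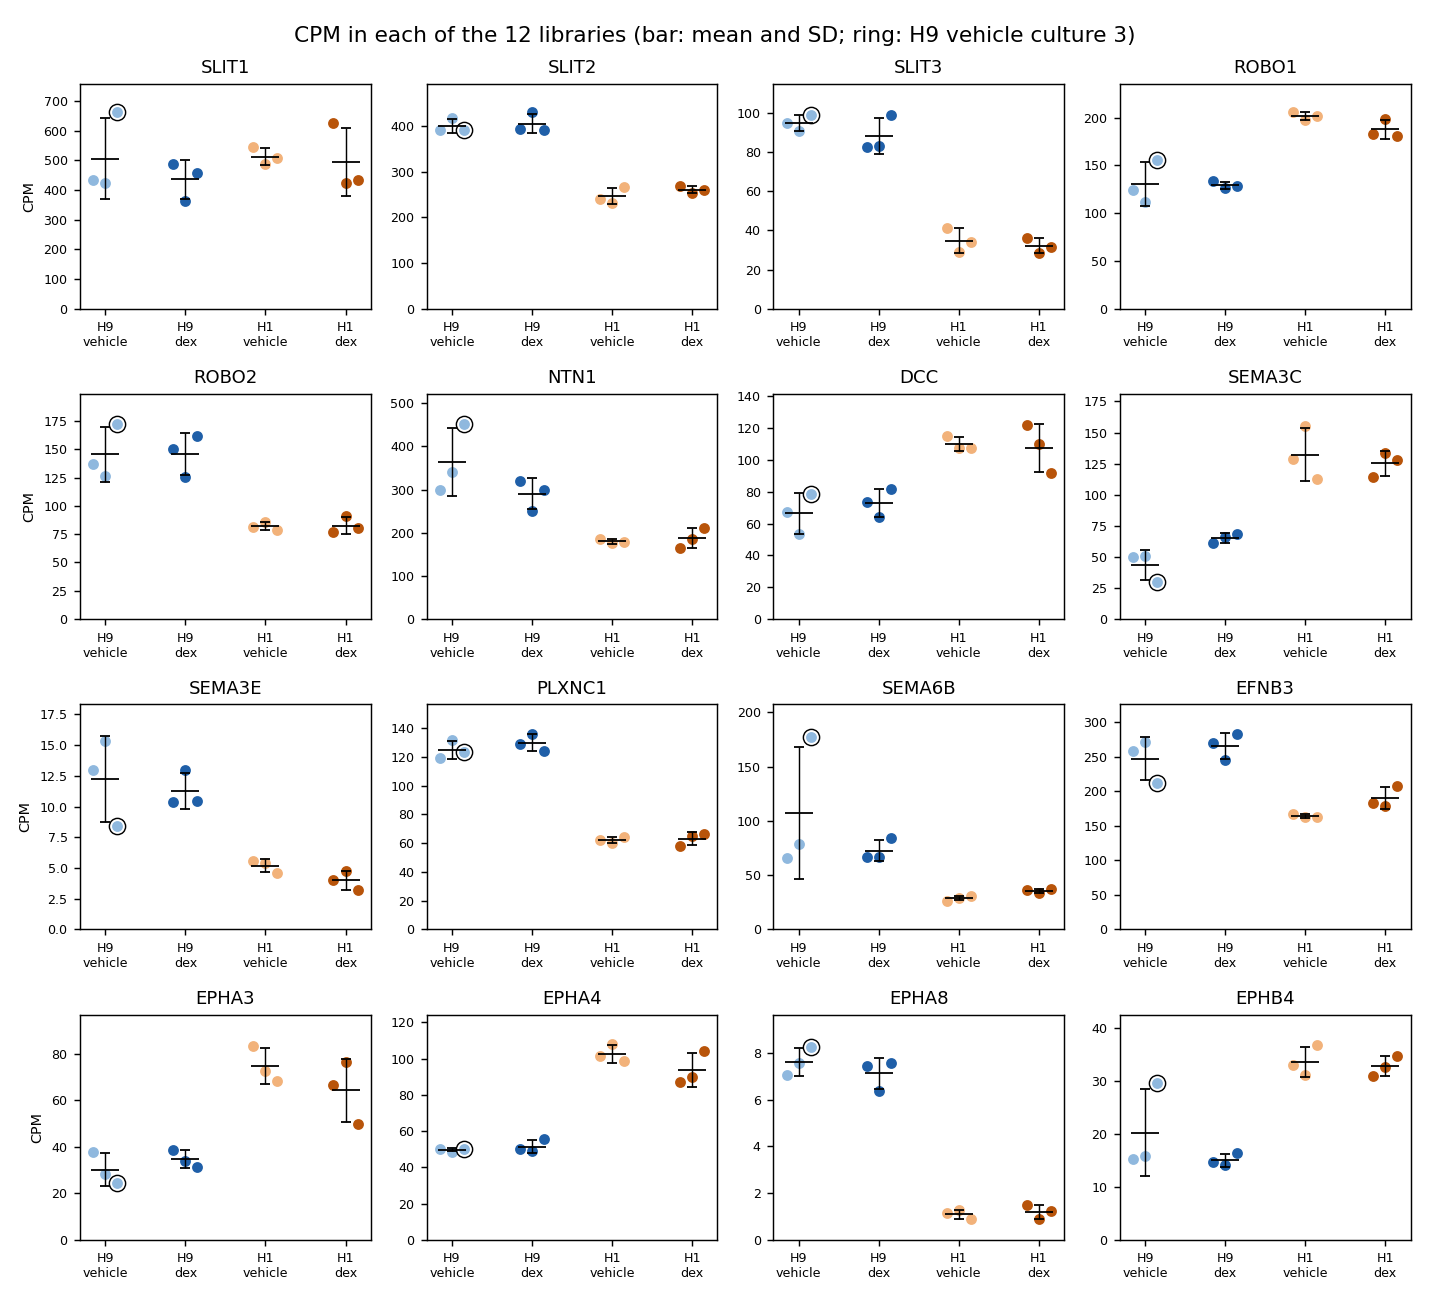
CPM of 16 members in each of the 12 libraries, by group, on linear axes that start at 0. Points are cultures, bars are mean and SD of 3 cultures, and the ring marks H9 vehicle culture 3. SLIT3, ROBO2, PLXNC1 and EPHA8 are higher in all 6 H9 libraries and ROBO1, DCC, SEMA3C, EPHA3, EPHA4 and EPHB4 lower, whereas the lines overlap for SLIT1.

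Among members that match by symbol only, UNC50, a Golgi protein gene, passed as lower in H9 in vehicle alone (log2 fold change −0.40 ± 0.14). It was −0.22 ± 0.07 without H9 vehicle culture 3 and then passed in dexamethasone too (−0.24 ± 0.06). The vehicle call was lost (edgeR adjusted p = 0.051 to 0.0982) on removal of any 1 of the 9 libraries outside the H9 vehicle group. UNC5CL, at 0.296 to 1.89 CPM over all libraries, passed as lower in dexamethasone alone (−1.72 ± 0.33, edgeR adjusted p = 0.00137), and 23.8% of its exon bases are shared with OARD1.

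Whether the dexamethasone and vehicle cultures gave different line differences was tested as the difference of the dexamethasone effects. For 0 of 65 members did it pass (0% of all genes), and DESeq2 and limma-voom also called 0. At an unadjusted p under 0.05 there were 12 members, or 12 of 65, beside 7.46% of all genes. The smallest were SEMA3A (0.54 ± 0.16, unadjusted p = 0.00517, edgeR adjusted p = 0.548) and SEMA6D (0.65 ± 0.20, unadjusted p = 0.00719, edgeR adjusted p = 0.548). Members called in 1 treatment alone are thus not shown to differ between treatments.

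Markers of several other cell types moved with the line, and their part in the differences above was not tested. Beside the counts of markers below, 46.9% of all genes passed in vehicle and 43.6% in dexamethasone. Progenitor and radial glia markers summed to 4777 to 7959 CPM in H9 vehicle and 4656 to 4853 CPM in H1 vehicle, with overlap. The 7959 CPM came from H9 vehicle culture 3, beside 4777 and 5045 CPM in its sisters. Of the 6 of them tested, 1 passed in vehicle, as higher in H9. All 8 markers of proliferating cells were lower in H9, with summed levels of 91.3 to 145 CPM in H9 vehicle and 544 to 610 CPM in H1 vehicle. Mesenchymal markers summed to 233 to 381 CPM in H9 vehicle and 1821 to 3271 CPM in H1 vehicle, with 4 of 8 lower and 1 higher in H9. COL1A1, a fibrillar collagen of mesenchymal cells, had a mean of 32.1 CPM in H9 vehicle and 1407 CPM in H1 vehicle. Pan-neuronal markers summed to 5299 to 6202 CPM against 3953 to 3996 CPM (5 of 10 higher, 1 lower), and astrocyte markers to 1525 to 2165 CPM against 934 to 1058 CPM (4 of 8 higher). Excitatory neuron markers summed to 53.4 to 69.5 CPM against 114 to 148 CPM, with 5 of 8 lower. Inhibitory neuron markers summed to 359 to 496 CPM against 355 to 482 CPM in vehicle, with overlap, and to 409 to 481 CPM against 504 to 681 CPM in dexamethasone, without overlap. In vehicle 6 of these 8 passed. GAD1 and SLC32A1, of GABA synthesis and transport, were higher in H9, and the transcription factor genes DLX1, DLX2, DLX5 and LHX6 lower. In dexamethasone 4 passed, all lower. H9 vehicle culture 3 gave the lowest H9 vehicle sum of the pan-neuronal, astrocyte, excitatory, inhibitory and proliferating markers. Without it, 7 of 10 pan-neuronal (1 lower) and 5 of 8 astrocyte markers passed as higher in vehicle, beside 30.1% of all genes. In vehicle 7 of 8 excitatory markers passed as lower, beside 28.6%. Of inhibitory markers in dexamethasone 6 passed as lower and 1 as higher, beside 32.8% and 31.9%. AIF1, which defines microglia, was listed at 0 in all libraries. The 6 microglia markers summed to 0.418 to 1.34 CPM in H9 vehicle and 1.03 to 1.78 CPM in H1 vehicle, with overlap. Just 1 of them had enough counts to be tested, and it passed as lower in H9 in both treatments. Of the 6 pluripotency markers 2 were tested, and both passed as lower in H9 in both treatments. Endothelial markers were low in both lines, at 14.2 to 18.4 CPM against 22.6 to 29.0 CPM summed, and PECAM1, which defines that cell type, was below 1 CPM on average in each group.

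Genes around the members in the pathway were also described. Of 30 other guidance cues and adhesion receptors, 18 passed in vehicle, 12 higher and 6 lower in H9, and 17 in dexamethasone, 11 higher and 6 lower. These are 60% and 56.7%, beside 46.9% and 43.6% of all genes. Their median log2 fold changes were 0.31 and 0.33, beside 0.30 and 0.10 for the members. Without H9 vehicle culture 3 the medians of these 30 genes were 0.23 and 0.33, and the vehicle median of the members was smaller too. Then 22 of the 30 passed in vehicle (14 higher, 8 lower) and 23 in dexamethasone (16 and 7). These are 73.3% and 76.7%, beside 58.6% and 64.6% of all genes. The largest in vehicle were the adhesion molecules CNTN5 (1.64 ± 0.28) and DSCAM, a netrin-binding receptor (1.63 ± 0.24), and the netrin gene NTN3 (1.60 ± 0.29). They were 1.19, 1.21 and 1.21 without H9 vehicle culture 3, and in dexamethasone 1.38 ± 0.28, 0.77 ± 0.23 and 0.86 ± 0.29. Of 48 genes of signalling downstream of guidance receptors, 17 passed in vehicle (12 higher, 5 lower) and 14 in dexamethasone (7 and 7), or 35.4% and 29.2%, both under the shares of all genes, with medians of 0.01 and −0.03. Without H9 vehicle culture 3 there were 27 (12 higher, 15 lower) and 30 (14 and 16), or 56.2% and 62.5%, beside 58.6% and 64.6% of all genes. The largest in vehicle were NGEF, the exchange factor ephexin that couples EphA receptors to RhoA (2.36 ± 0.18, from a mean of 29.0 CPM in H1 to 149 CPM in H9), the kinase PAK3 (1.54 ± 0.13) and MICAL3 (0.80 ± 0.21). Without that library they were 2.23, 1.68 and 0.41, and in dexamethasone 2.15 ± 0.18, 1.84 ± 0.13 and 0.21 ± 0.21, where MICAL3 did not pass.

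The second comparison asked whether 6 h of dexamethasone changed the members within a line. No member passed edgeR's test in H9 (0 of 65, beside 0.0673% of all genes) or in H1 (0 of 65, beside 0.0505%), and DESeq2 and limma-voom also called 0 in each line. At an unadjusted p under 0.05 there were 11 members in H9, where 16.3% of all genes reached it, and 8 in H1, where 2.95% did. The median log2 fold change of the members (dexamethasone minus vehicle) was −0.11 in H9 and 0.02 in H1, beside −0.02 and 0.00 for all genes. The H9 median depended on H9 vehicle culture 3: without it 19 of the 65 members turned sign in H9, and their median was no longer negative. A difference that did not pass is not shown to be absent.

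In H9 the members with the smallest p were SEMA3C, EPHB6 and SEMA6A, whose vehicle values are given above. SEMA3C had 29.9 to 50.8 CPM in vehicle and 60.8 to 68.7 CPM in dexamethasone, without overlap, a log2 fold change of 0.58 ± 0.18 (edgeR adjusted p = 0.299). Without H9 vehicle culture 3, the lowest of the group, it was 0.37 ± 0.11. EPHB6 had −0.88 ± 0.29 and SEMA6A 0.35 ± 0.12 (edgeR adjusted p = 0.299 for both), and without that library −0.62 ± 0.26 and 0.22 ± 0.06. In H1 the smallest p belonged to SEMA3A, SEMA6D and UNC5A. SEMA3A had 72.2, 68.1 and 56.7 CPM in vehicle and 49.7, 50.1 and 47.0 CPM in dexamethasone, without overlap (−0.42 ± 0.11, edgeR adjusted p = 0.964). SEMA6D, a ligand of PLXNA1, had 162, 177 and 146 CPM in vehicle and 120, 119 and 119 CPM in dexamethasone (−0.44 ± 0.14, edgeR adjusted p = 1). UNC5A had 18.1, 15.6 and 17.9 CPM in vehicle and 24.3, 19.4 and 23.5 CPM in dexamethasone (0.38 ± 0.13). Left out of the fit, H9 vehicle culture 3 changed 2 of these results: SEMA6D (edgeR adjusted p = 0.0476) and SEMA3A (edgeR adjusted p = 0.048) then passed as lower in H1, beside 0.326% of all genes. In H9 no member passed without that library, beside 0.293% of all genes.

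Non-overlap of the groups was counted as well. In H9, 4 members were higher in all dexamethasone cultures (9.76% of all genes were) and 3 lower (11.6% of all genes), where 21.4% of all genes were separated one way or the other. In H1, 10 were higher (7.15% of all genes) and 7 lower (6.98%), where 14.1% of all genes were separated. Just 1 member, the netrin receptor UNC5B (chromosome 10, 71212570 to 71302864, plus strand), was separated in the same direction in both lines, and none in opposite directions. It was at 66.9, 63.0 and 86.1 CPM in H9 vehicle and 59.1, 57.6 and 62.8 CPM in H9 dexamethasone, and at 64.5, 64.7 and 63.0 CPM in H1 vehicle and 50.0, 50.8 and 60.3 CPM in H1 dexamethasone. Its log2 fold changes were −0.27 ± 0.12 (edgeR adjusted p = 0.307) and −0.25 ± 0.12 (edgeR adjusted p = 1), so it passed in neither line. None of the 30 other guidance genes, the 48 signalling genes or the cell type markers passed in either line.

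**Figure D5:**
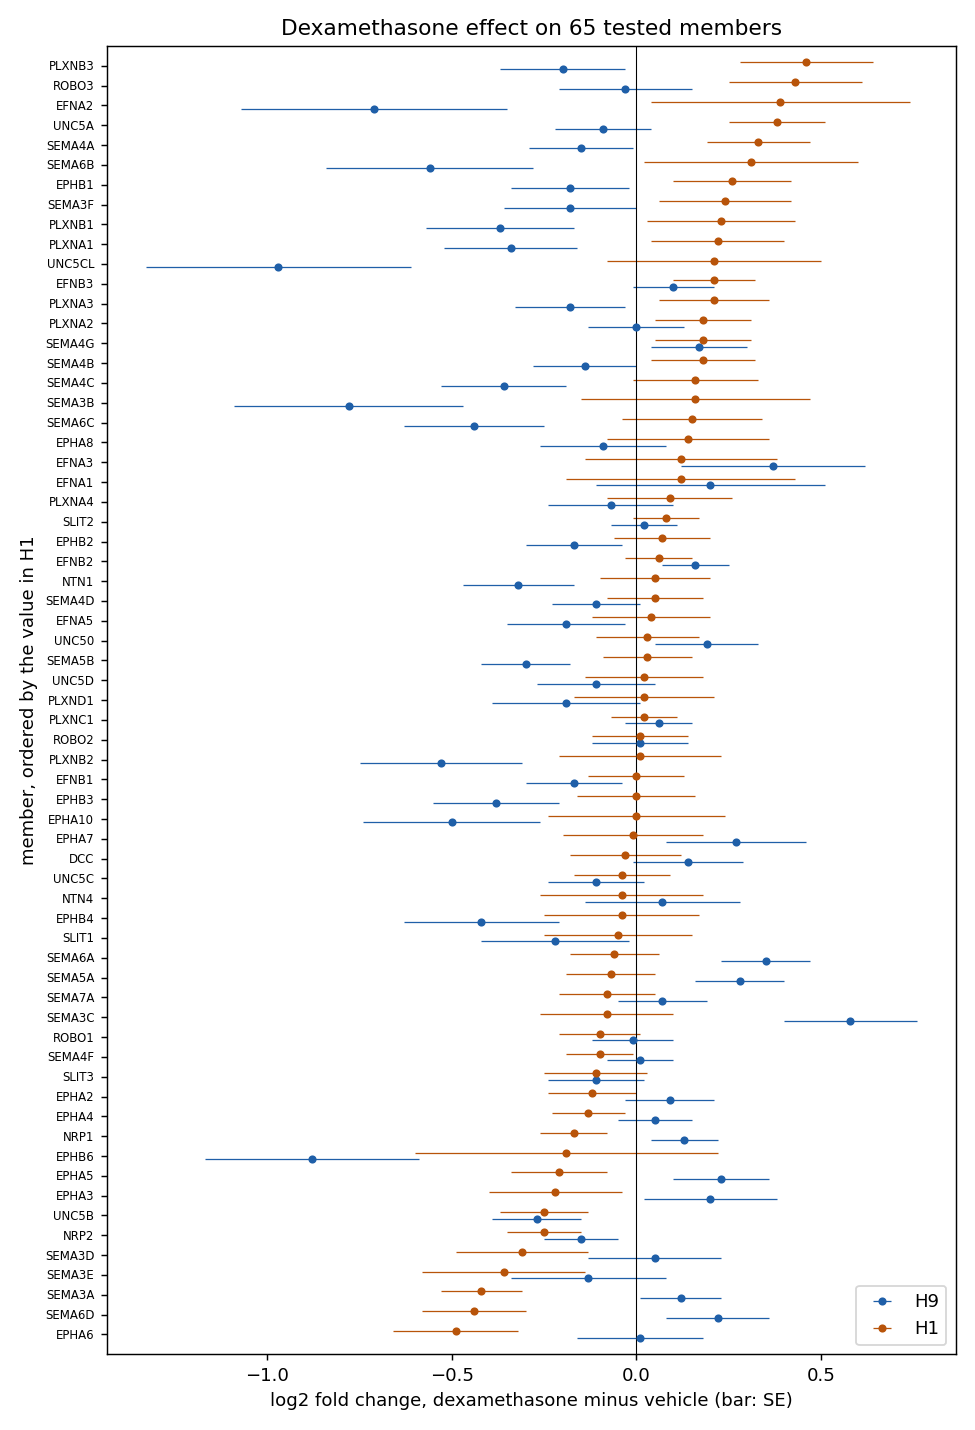
Dexamethasone effect on each tested member as log2 fold change (dexamethasone minus vehicle) with SE bars, in H9 (blue) and H1 (orange), ordered by the value in H1. None of the 65 members passed in either line. UNC5B lies left of 0 in both lines, at −0.27 and −0.25, and SEMA3C reaches 0.58 in H9.

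Promoter sequences were available for 61 of the 70 members as RefSeq windows of 300 bases on GRCh38.p14, from 250 bases before to 50 after the start. No window was found for EFNB3, EPHA10, NRP1, NTN1, SEMA3A, SEMA6A, SEMA6B, UNC5B and UNC5D. The windows were searched on both strands for 6 motifs, each by its exact letters. The full glucocorticoid response element, AGAACA and TGTTCT with 3 bases of any kind between them, matched 0 of 61 members and 0.00285% of all 35116 promoters. Its single arm AGAACA, which the full element contains, matched 1 member (1.64%) and 14.8% of all promoters. The E-box CAGCTG matched 18% of members and 17.9% of all promoters, the AP-1 site TGANTCA 0 members and 7.71%, and the TATA box TATAAA 4.92% and 11.5%. The GC box GGGCGG matched 77% of members and 45% of all promoters. Member windows held a median of 66.7% G or C and 26 CpG, beside 58.7% and 14 in all promoters. These matches describe letters in a short window, and binding was not measured.

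The 1 member with the single arm was EPHB6, shown here for that match. Its 250 bases before the start lie at chr7:142862506-142862755 on the plus strand of GRCh38.p14. This start, too, lies inside the GENCODE gene span (142855061 to 142871094), and which start these cultures use was not measured. Capitals mark, from the left, that arm in reverse, a GC box and an E-box.
EPHB6: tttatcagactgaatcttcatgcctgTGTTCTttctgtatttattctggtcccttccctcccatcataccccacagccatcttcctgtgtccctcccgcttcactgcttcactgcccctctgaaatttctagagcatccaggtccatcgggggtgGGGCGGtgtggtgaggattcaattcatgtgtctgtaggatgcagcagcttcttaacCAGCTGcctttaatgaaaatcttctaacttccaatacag
In these cultures EPHB6 had −0.88 ± 0.29 with dexamethasone in H9 and −0.19 ± 0.41 in H1, and passed in neither line.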

How the data were processed

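Polyadenylated RNA of 12 cultures was counted, 3 per group. The deposited values are raw counts, in whole numbers and 1 file per library. STAR 2.5.3a, HTSeq and the builds hg38 and GRCh38.p10 are named in the submitters' processing notes. Not given in the sources used here are the strand setting, the annotation release and the treatment of multi-mapping reads, so overlapping or antisense genes cannot be told apart. A library's total is the sum of its counts, and intervals of depth cover counting error only. Symbols came from a gene name table for 57532 of 63925 IDs and from GENCODE 29 for 552, and 5841 had none. Coordinates, biotypes and exon lengths are from GENCODE 29 on GRCh38. Of the IDs that fit the naming rule, 12 were not protein coding and were left out.

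Genes were filtered with filterByExpr (17819 kept), scaled by TMM and tested with edgeR 4.0.16's quasi-likelihood F-test, with 1 mean per group over 12 libraries (8 residual degrees of freedom) and Benjamini-Hochberg adjustment over all genes tested, at a threshold of 0.05. SEs are the log2 fold change over the root of F. CPM are TMM-scaled. Alternatives used DESeq2 1.42.0, limma-voom 3.58.1, other scalings and filters, the 2 groups alone, a block for culture number, and fits without each library. Voom with sample quality weights was added after the data were seen. The test was also run on counts simulated with 1 fitted spread per gene. These hold no library set apart like H9 vehicle culture 3, so that case was not checked. The software was R 4.3.3, Python 3.11.15 and matplotlib 3.10.9.

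Members and lists were chosen with earlier results of these data known. Values library by library, in all 4 groups or in some of them, are given for members named by a rule. Per family these are the largest rise and the largest fall among members called in vehicle at a mean of at least 1 CPM. The highest per kilobase in each family, and the 3 with the smallest p for dexamethasone in each line, were added. In the other lists the 3 largest called changes are named. Other members given library by library or with their statistics, among them PLXNC1, SLIT2, EPHA4, SEMA4D, SEMA5A and SEMA7A, were chosen after their values were seen, as were the ratios, the neighbouring pairs and the sequences shown.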

Additional observations from a re-analysis of the deposited data

How the results depend on the processing

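Depth limits the low members most: EPHB6, EPHA8 and UNC5CL rest on few counts per library. Each count of members called was recomputed under 7 further settings, or fewer where noted, with a replicate block, with voom quality weights and with each library left out. The counts of 34 (vehicle) and 32 (dexamethasone) members that differ between the lines stayed within 1.5 times under all of them, at 26 to 43 and 31 to 47. For dexamethasone in H9, 1 member (SEMA5A, higher) passed with voom quality weights. In H1, 1 member (SEMA6D, lower) passed with only the H1 groups fitted, and 0 to 2 passed when 1 library was left out, the 2 without H9 vehicle culture 3. In all other settings, and for the difference between lines, 0 passed. Among all genes, where 12 were called in H9 and 9 in H1, the settings gave 2 to 263 and 3 to 110.

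No sign turned among members that passed. Of the 65 tested, 11 members in vehicle (8 of them without H9 vehicle culture 3) and 6 in dexamethasone turned sign in at least 1 fit. For dexamethasone 28 did in H9 and 24 in H1, and 19 in the difference. Of the members named by the rule for the line differences, EFNA2 in vehicle went from 0.43 to −0.24 without H9 vehicle culture 3 and to −0.09 with voom quality weights (−0.24 to 0.70 over all fits with 1 library left out). SLIT1 in vehicle went from −0.02 to 0.05, 0.09 and 0.02 without H9 vehicle culture 1, H9 vehicle culture 2 and H1 vehicle culture 1 (−0.26 to 0.09), and in dexamethasone from −0.18 to 0.03 without H1 dexamethasone culture 1 (−0.28 to 0.03). PLXNB2 in dexamethasone went from 0.06 to −0.01 without H9 dexamethasone culture 3 and to −0.00 without H1 dexamethasone culture 2 (−0.01 to 0.13). The cause was not tested. With culture number as a replicate block, 35 and 33 members differed between the lines and 0 passed for dexamethasone in H9, in H1 and in the difference. Cultures of the same number correlated at −0.159 to 0.179 and those of different numbers at −0.178 to 0.184. Between vehicle and dexamethasone in H1, the same number gave 0.050 to 0.179 and different numbers −0.178 to 0.073. In H9 these were −0.015 to 0.113 and −0.134 to 0.084. The ranges overlap and do not show whether cultures of the same number shared any handling. The fit of only the groups compared could not be made for the difference between lines, which needs all 4 groups.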

Other observations

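Neighbouring members did not always differ in the same direction. PLXNC1 and NTN4, about 1350 kb apart on chromosome 12, were both higher in H9 in both treatments, and so were EFNB3 and NTN1, about 1310 kb apart on chromosome 17. EPHA8 and EPHB2 lie 107 kb apart on chromosome 1 with log2 fold changes of 2.79 and −0.32 in vehicle. SEMA3E and SEMA3A lie 307 kb apart on chromosome 7 with 1.25 and −0.32. These pairs, within 3 Mb of each other, were picked after the values were seen and are given without a test.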
